A study of Mus musculus with 2 samples.

Results

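The enzymes described here are 32 genes of glycolysis, the pentose phosphate pathway and glycogen metabolism, taken by symbol from the 55450 genes in the deposited count matrices. The list runs from Gpi1, which follows glucose phosphorylation, to the lactate dehydrogenases, and adds the oxidative and non-oxidative pentose phosphate enzymes and 5 genes of glycogen and glucose 1-phosphate. It holds no hexokinase, so the targeted gene of the study, Hk2, is outside it. Cells of the mouse brain, sorted for high CD11b and low CD45, were taken at day 3 of microglial repopulation from C57BL/6 mice of 2 genotypes, Hk2 fl/fl and Hk2 cKO, with 1 library for each. In the cKO mice both floxed Hk2 copies meet CreER, a tamoxifen-inducible recombinase driven by Cx3cr1, a gene of microglia that other myeloid cells also use. The fl/fl mice carry the same floxed copies, and the stated induction is 100 µg tamoxifen on 2 consecutive days at postnatal days 1 to 2, or otherwise where indicated. The labels do not state whether the fl/fl mice received it, how microglia were depleted, how many animals a library holds, their age, or which exons are floxed.

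Glycolysis splits glucose into pyruvate, yielding ATP and NADH, and lactate dehydrogenase regenerates NAD+ by turning pyruvate into lactate. The oxidative pentose phosphate branch draws glucose 6-phosphate off to make NADPH, the non-oxidative branch interconverts sugar phosphates and ribose 5-phosphate, and glycogen stores glucose for release as glucose 1-phosphate. Microglia, the resident macrophages of the brain, use both oxidative metabolism and glycolysis, dividing cells need ribose phosphate for nucleotides, and neutrophils are known for high glycolytic and NADPH-producing capacity.

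The values are summed UMIs, which count 3' ends of RNA molecules and were not divided by transcript length, expressed as counts per 1000000 UMIs of the same cells (CPM). After filtering, 2472 fl/fl and 2009 cKO cells fell into 10 microglia-like clusters, with 32688354 and 28429087 UMIs in all and median depths of 10192.5 and 12009 UMIs. The 16 microglial markers, all detected, summed to 30022 and 31722 CPM in these cells. With 1 library per genotype there is no replicate check, so no difference was tested. Intervals in parentheses are exact 95% intervals and cover counting error only. A gene counts as measured where its mean over the 2 groups compared reaches 10 CPM and its UMIs there reach 10, and a gene at least 25% higher or 20% lower in CPM, the same fold either way, is past the threshold. Hk2 itself stood at 166 (162 to 171) and 43.5 (41.1 to 46.0) CPM in the fl/fl and cKO microglia-like cells, and Cx3cr1 measured 1301 and 677 CPM. The libraries also differ in a mitochondrial read-out. UMIs of Gm28438 without mt-Nd3 were found in 1707 of the cKO cells, against 4 cells with mt-Nd3 alone, whereas the fl/fl library held 493 cells of the first kind and 1205 of the second. Comparisons of genotype are therefore also given against each kind of fl/fl cell.

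Upstream sequences are shown for 5 members that carry the patterns below. Ldha and Pgk1 varied together across microglia-like clusters, and Ldhb and Pfkfb3 had other orders there. Pygl was high in neutrophil-like and monocyte-like cells. Each sequence is the 250 bases before the gene's start, 5′ to 3′ on the gene's strand, from RefSeq on GRCm38.p6. Where RefSeq lists several starts, the one nearest the principal transcript of GENCODE M21 was taken. Capitals mark the letters ACGTG or GCGTG on either strand (CACGT or CACGC when read on the strand shown), the core that hypoxia-inducible factor 1 binds, of which ACGTG is also part of the E-box CACGTG. The Ldha sequence lies at chr7:46846832-46847081 on the plus strand and the Pgk1 sequence at chrX:106186850-106187099 on the plus strand. The others lie on the minus strand, Ldhb at chr6:142507958-142508207, Pfkfb3 at chr2:11502091-11502340 and Pygl at chr12:70227684-70227933.
Ldha: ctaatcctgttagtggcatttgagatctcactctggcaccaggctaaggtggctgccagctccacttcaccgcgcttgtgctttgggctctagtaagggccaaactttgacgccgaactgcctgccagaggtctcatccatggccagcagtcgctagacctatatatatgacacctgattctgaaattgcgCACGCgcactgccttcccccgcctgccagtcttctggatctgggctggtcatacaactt
Pgk1: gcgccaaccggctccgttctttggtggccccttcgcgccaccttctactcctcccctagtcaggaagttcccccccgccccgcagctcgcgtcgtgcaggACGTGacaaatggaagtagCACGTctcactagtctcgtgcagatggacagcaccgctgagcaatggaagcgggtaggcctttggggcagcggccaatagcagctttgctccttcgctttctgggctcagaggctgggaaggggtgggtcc
Ldhb: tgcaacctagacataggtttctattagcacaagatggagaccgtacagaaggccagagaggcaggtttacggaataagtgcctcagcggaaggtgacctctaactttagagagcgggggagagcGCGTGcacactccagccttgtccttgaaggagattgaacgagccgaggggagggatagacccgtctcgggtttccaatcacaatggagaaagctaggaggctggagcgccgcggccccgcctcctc
Pfkfb3: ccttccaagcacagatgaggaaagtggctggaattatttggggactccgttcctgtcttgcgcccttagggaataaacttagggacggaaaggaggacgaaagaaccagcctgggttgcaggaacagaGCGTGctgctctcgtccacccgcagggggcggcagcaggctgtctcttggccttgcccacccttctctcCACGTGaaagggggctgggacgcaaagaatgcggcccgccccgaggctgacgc
Pygl: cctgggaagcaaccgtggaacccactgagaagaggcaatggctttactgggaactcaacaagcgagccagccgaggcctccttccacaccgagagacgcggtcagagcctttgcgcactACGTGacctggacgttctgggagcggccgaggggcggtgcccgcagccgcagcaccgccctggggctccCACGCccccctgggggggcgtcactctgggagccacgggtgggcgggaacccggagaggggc
Ldha and Ldhb each held 1 match, Pgk1 and Pygl 2, and Pfkfb3 3, of which 2 overlap in its CACGTG, read once on each strand. All 32 enzymes had a RefSeq start, and 21 of the 32 windows (65.6%) held a match, against 38.6% of 32851 windows in the table. Base composition moves with that share, since windows of 50 to 70% GC held a match in 48.6% of cases and those of at least 60% GC in 63.8%. The enzymes' windows had a median GC content of 56.8%, against 52.4% for all windows. A match is a run of letters and was found in genes of either pattern. Aldoa, Tpi1 and Pkm, which varied with Ldha and Pgk1 across clusters, held none in the windows used. Another listed window of Aldoa and of Pkm did hold a match. The Aldoa start used lay 8661 bases from that of the principal transcript, a distance greater than the length of the counted gene.

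In microglia-like cells lower glycolysis dominated the counts. Gapdh, the dehydrogenase that makes the NADH of glycolysis, stood at 2667 (2649 to 2685) and 2631 (2613 to 2650) CPM in the fl/fl and cKO libraries, or 35.3% and 34.0% of all UMIs of the 32 enzymes. Pkm, the pyruvate kinase that makes ATP in the last step, followed at 804 and 792 CPM. Pgam1, which moves the phosphate of phosphoglycerate, stood at 313 and 322 CPM. Pgk1, the ATP-forming phosphoglycerate kinase, measured 212 and 204 CPM. Eno1, enolase 1, measured 264 (258 to 269) and 339.6 (333 to 346) CPM. The neuronal enolase Eno2 gave 16 and 13 UMIs. Bpgm, which makes 2,3-bisphosphoglycerate, was near 7.13 and 8.27 CPM.

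Upper glycolysis was carried by 1 isozyme per step. Gpi1, which isomerises glucose 6-phosphate, measured 261 and 265 CPM. Of the phosphofructokinases, which commit sugar to glycolysis, the liver-type Pfkl stood at 64.7 (61.9 to 67.5) and 73.3 (70.2 to 76.5) CPM and held 91.5% and 93.2% of phosphofructokinase UMIs. The muscle type Pfkm was at 2.63 and 2.32 CPM and the platelet type Pfkp at 3.40 and 3.06 CPM. Aldoa, aldolase A, measured 582 (574 to 591) and 652 (642 to 661) CPM, and Aldoc 3.67 and 3.27 CPM. Tpi1, which interconverts the triose phosphates, measured 219 and 208 CPM. Pfkfb3 and Pfkfb4, which set the level of the phosphofructokinase activator fructose 2,6-bisphosphate, stood at 52.9 and 55.6 CPM and at 17.99 and 16.4 CPM. Fbp1, the gluconeogenic fructose bisphosphatase, gave 0 UMIs in both libraries, and 3 UMIs, taken as the most that a count of 0 allows, would be 0.0918 CPM (fl/fl) and 0.106 CPM (cKO).

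**Figure D1:**
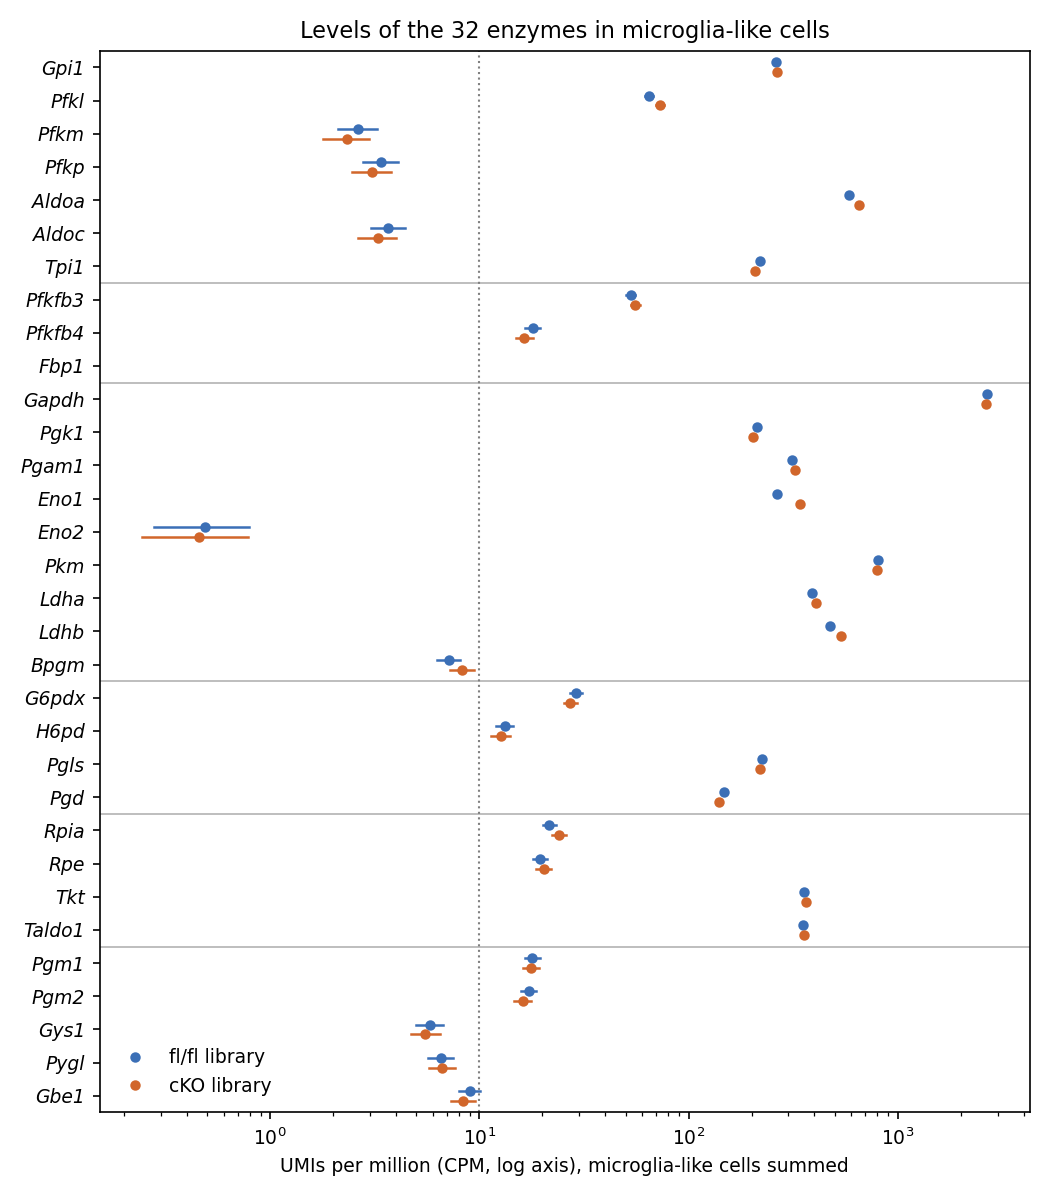
Levels of 31 of the 32 enzymes in microglia-like cells, in CPM on a log axis, with blue points for the fl/fl and orange points for the cKO library, bars for exact 95% counting intervals, grey lines between pathway groups and a dotted line at 10 CPM. Gapdh stood highest at 2667 and 2631 CPM, and Fbp1 with 0 UMIs has no point.

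Both lactate dehydrogenase subunits were abundant. Ldha encodes the subunit favoured in lactate-producing tissues and Ldhb the subunit favoured where lactate is oxidised. Ldha measured 389 (382 to 396) and 405 (397 to 412) CPM, and Ldhb 473 (466 to 480) and 534 (526 to 543) CPM. Ldhb thus took 54.9% (54.3 to 55.5) of their joint UMIs in fl/fl and 56.9% (56.3 to 57.5) in cKO cells. With means of per-cell CPM the shares were 58.9% and 60.8%. A share depends on how well each gene's reads are captured and uniquely mapped, so it is not read as a ratio of molecules. The balance was not the same in all cells, as given below.

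Among the pentose phosphate enzymes the non-oxidative pair Tkt and Taldo1, transketolase and transaldolase, stood highest, at 358 and 363.5 CPM for Tkt and at 352 and 355 CPM for Taldo1. The isomerase Rpia (21.6 and 23.95 CPM) and the epimerase Rpe (19.5 and 20.3 CPM), which handle the pentose phosphates themselves, were lower. In the oxidative branch the first enzyme, the NADPH-forming G6pdx, measured 29.0 and 27.2 CPM. The lactonase Pgls measured 224 and 219 CPM and Pgd, the second NADPH-forming dehydrogenase, 148 and 140.03 CPM. H6pd, which runs the first steps inside the endoplasmic reticulum, stood at 13.2 and 12.7 CPM. Glycogen genes were low. The phosphoglucomutases Pgm1 and Pgm2, named as in the files, stood at 17.9 and 17.6 CPM and at 17.2 and 16.1 CPM. Glycogen synthase Gys1 was at 5.78 and 5.52 CPM, the branching enzyme Gbe1 at 8.99 and 8.37 CPM, and the liver glycogen phosphorylase Pygl at 6.55 and 6.65 CPM. The other phosphorylases, Pygb and Pygm, were as low, at 12.9 and 12.3 CPM and at 7.07 and 8.02 CPM. Several of these genes, Gapdh, Ldha, Tpi1, Pgk1, Pgam1 and Eno1 among them, have near-identical processed copies in the genome, and reads shared with a copy may have been discarded, so their absolute levels are uncertain. The Eno1 copy Eno1b gave 9.18 and 8.72 CPM.

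The cKO and fl/fl libraries were then compared to see whether the enzymes downstream of hexokinase differed where Hk2 was lower. In microglia-like cells they were close. Of the 32 enzymes 23 were measured, and 12 were higher and 11 lower in cKO. Only Eno1 passed the threshold, upward, against 3.51% of 7812 measured genes past it upward and 2.84% downward, and no enzyme passed it downward. The median log2 ratio of the 23 was 0.01, beside -0.04 over all measured genes. Under the other settings that median ran from -0.10 to 0.08. The 4 non-oxidative pentose phosphate enzymes had a median of 0.04, each with an interval covering 0, the 4 oxidative ones of -0.07, and the 4 measured upper glycolysis genes of 0.09. The libraries' cells also lay in unlike clusters, with 54 fl/fl and 239 cKO cells in cluster 11, led by interferon genes such as Ifit3, and 319 and 155 in cluster 4. With the 10 clusters weighted equally the median was -0.01 and Eno1 stood at 0.37.

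Eno1 (ENSMUSG00000063524, chromosome 4, 150236721 to 150248879, plus strand, GRCm38) had a log2 ratio of 0.36 (0.32 to 0.41). All 10 clusters of microglia-like cells had more of it in cKO, by log2 ratios from 0.18 in cluster 0 to 0.51 in clusters 1 and 11, and in noncycling (0.36), S-positive (0.36) and G2/M-positive cells (0.46). In endothelial-like cells it was 203 against 303 CPM, log2 0.58 (0.29 to 0.87), and in neutrophil-like cells it was 199 against 207 CPM, inside the counting error. The next ratios were those of Pfkl (0.18, 0.09 to 0.27), Ldhb (0.18, 0.14 to 0.21) and Aldoa (0.16, 0.13 to 0.19). Aldoa, Ldhb and Pfkl were each higher in 9 of the 10 clusters, while Gapdh was higher in 4 of 10 and Pkm in 4 of 10. The clusters of a genotype share a library, so they are not replicates of each other. Counting intervals lay above 0 for 5 of the 23 enzymes and below 0 for 4. The lowest ratio was that of Pfkfb4 at -0.13 (-0.31 to 0.05).

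The fl/fl cells to which cKO was compared moved these values. Within the fl/fl library, 19 of the 23 enzymes were higher in cells with Gm28438 alone than in cells with mt-Nd3 alone, with a median of 0.20 beside 0.06 over all genes. These cell groups were made after values of this gene pair had been seen. Pgd (0.45), Ldha (0.37) and G6pdx (0.34) passed the threshold upward there, where 13.8% of all genes did, and Ldhb (-0.36) passed it downward, where 6.64% did. Eno1 was also higher, at 312 against 256 CPM (0.28, 0.20 to 0.36). Set against fl/fl cells with Gm28438 alone, cKO cells of the same kind had 8 enzymes higher and 15 lower, with a median of -0.10 beside -0.06 over all genes. There 6.52% of all genes passed the threshold upward and 11.0% downward. Eno1 stood at 0.15 in that comparison, under the threshold, Ldhb at 0.41 (0.35 to 0.47), 400.5 against 532 CPM, and Pgd at -0.34 (-0.44 to -0.24), 179.6 against 142 CPM. When the fl/fl cells were those holding mt-Nd3 alone, 19 enzymes were higher in cKO and 4 lower, with 5.11% of all genes past the threshold upward and 3.44% downward, and Eno1 stood at 0.44 (0.38 to 0.49). The 2 kinds of fl/fl cell also differed in cycle, with 19.2% and 9.62% S-positive cells. Among noncycling cells the Eno1 ratio between them was 0.32 (0.17 to 0.46), and 19 of 23 enzymes were again higher. The part of this split in the genotype values cannot be told apart from genotype. Monocyte markers also differed in the summed microglia-like cells, at 79.3 and 136 CPM (fl/fl and cKO) summed over 9 genes, and the part of these was not tested.

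**Figure D2:**
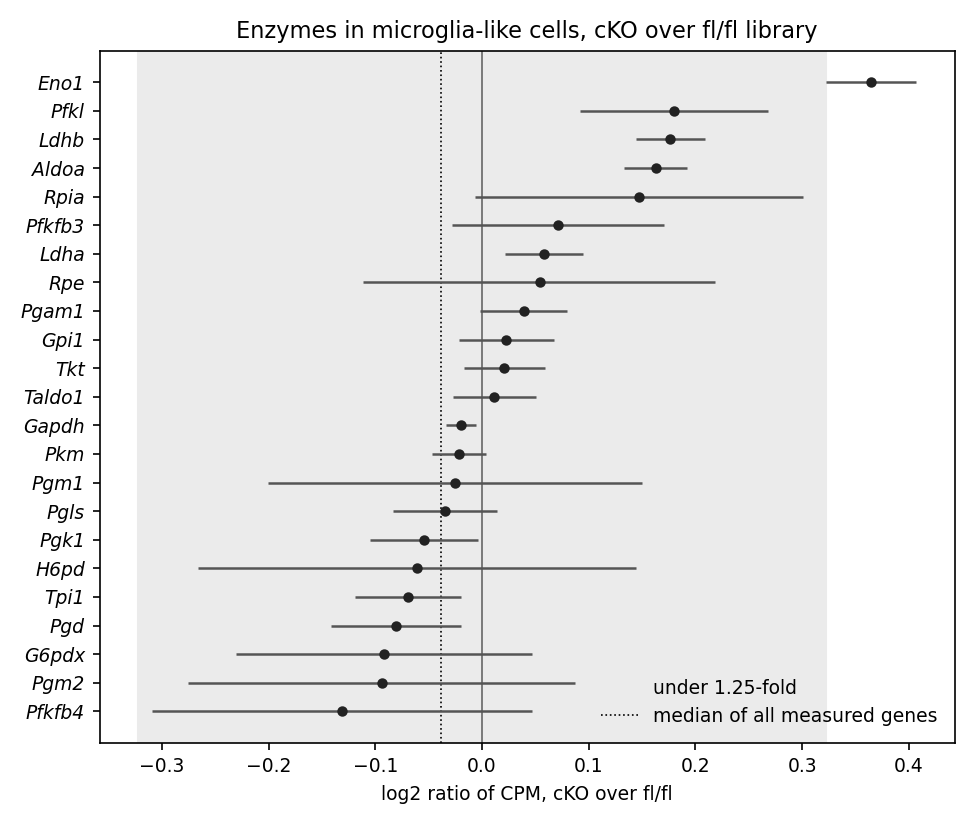
Log2 ratios of cKO over fl/fl CPM for the 23 measured enzymes in microglia-like cells, with exact 95% counting intervals, grey shading under the threshold and a dotted line at the median of all measured genes (-0.04). Eno1 at 0.36 is the enzyme outside the shading.

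Of 68 other genes of these pathways, 28 were measured in the same comparison, 7 higher and 21 lower, with a median of -0.05. None passed the threshold upward and 2 passed it downward, Hk2 itself, at -1.94 (-2.03 to -1.85), among them. Over all measured genes 3.51% passed it upward and 2.84% downward. Of the other glucose kinases, Hk3 stood at 0.21 (0.10 to 0.31), 46.4 against 53.6 CPM, and Hk1 at -0.20 (-0.43 to 0.03), 11.3 against 9.88 CPM. The mitochondrial pyruvate carrier genes Mpc1 (0.01) and Mpc2 (0.07) lay close to no difference.

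Cycling cells carried more of most enzymes. A cell thinned to 5000 UMIs that kept a UMI of 3 or more among 12 G2/M genes was called G2/M-positive (796 fl/fl and 516 cKO cells), a cell meeting this for 12 S genes alone was called S-positive (271 and 231), and the rest noncycling (1185 and 1082). Another 220 and 180 microglia-like cells were too shallow to call. The 32 enzymes together took 0.659% of UMIs in noncycling and 0.836% in G2/M-positive fl/fl cells, and 0.661% and 0.903% in cKO cells. As the cycling cells also hold more RNA, the enzymes' UMIs per cell were 78.4 and 140 in fl/fl and 88.9 and 159 in cKO.

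In G2/M-positive against noncycling cells 19 of 23 measured enzymes were higher in each library. In fl/fl, 9 passed the threshold upward, beside 22.5% of 7806 genes, and 2 downward, beside 17.0%, with a median of 0.22 beside 0.01 over all genes. In cKO, 11 passed it upward, beside 24.3% of 7756 genes, and 3 downward, beside 26.6%, with a median of 0.31 beside -0.03. S-positive cells gave 13 upward and 2 downward in fl/fl (all genes 22.6% and 12.1%) and 14 upward and 2 downward in cKO (23.0% and 17.8%), with medians of 0.42 and 0.35 beside 0.05 and 0.01. Both libraries were compared with their own noncycling cells, which the G2/M and S comparisons share.

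Tpi1, of the triose step, and Ldha had the highest ratios. Tpi1 measured 160.5 CPM in noncycling and 271 in G2/M-positive fl/fl cells (log2 0.76, 0.68 to 0.83), and 148 and 287 CPM in cKO cells (0.95, 0.87 to 1.04). Ldha measured 284 and 472 CPM in fl/fl (0.74, 0.68 to 0.79) and 288 and 531 CPM in cKO (0.88, 0.82 to 0.94). Pgam1, Eno1, Pgk1, Gapdh and Pkm followed, with log2 ratios from 0.37 to 0.70 in fl/fl and from 0.53 to 0.77 in cKO. Of the pentose phosphate enzymes, Tkt stood at 0.39 and 0.55 in G2/M-positive and 0.44 and 0.66 in S-positive cells, and Pgd at 0.32 and 0.27 and at 0.46 and 0.37. Gpi1, the step after glucose phosphorylation, differed little, at 0.04 and 0.10. Pfkl stood out in S-positive cells, at 0.57 (0.40 to 0.75) and 0.35 (0.17 to 0.52), against 0.15 and 0.16 in G2/M-positive cells, a difference between phases that was not tested.

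Ldhb ran the other way. It measured 561 CPM in noncycling and 402.5 CPM in G2/M-positive fl/fl cells (-0.48, -0.53 to -0.43), and 613 and 454 CPM in cKO cells (-0.43, -0.49 to -0.38), with -0.40 and -0.48 in S-positive cells. The Ldhb share of Ldha and Ldhb UMIs was 66.4% (65.6 to 67.3) in noncycling and 46.0% (45.1 to 46.9) in G2/M-positive fl/fl cells, and 68.0% (67.2 to 68.8) and 46.1% (45.0 to 47.1) in cKO cells. Values for the fructose 2,6-bisphosphate enzymes were below 0 too, though not at every setting. Pfkfb3 stood at -0.19 (-0.34 to -0.04) and -0.43 (-0.60 to -0.27) in G2/M-positive cells and at -0.41 and -0.53 in S-positive cells. Pfkfb4 stood at -0.50 (-0.77 to -0.23) in fl/fl and -0.26 (-0.57 to 0.05) in cKO G2/M-positive cells. With clusters 1 and 10 alone, weighted equally, Pfkfb3 turned to 0.36 in fl/fl and stood at -1.02 in cKO.

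**Figure D3:**
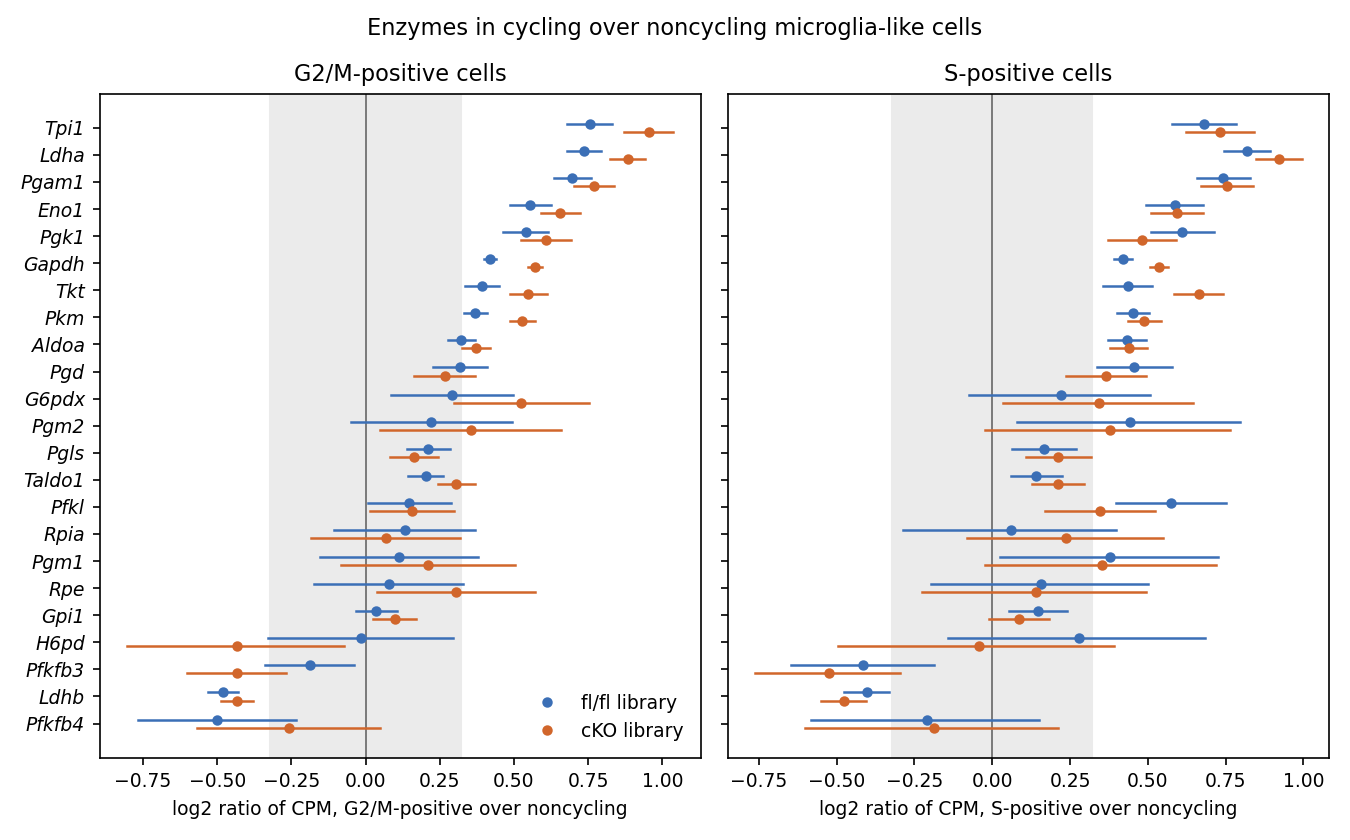
Log2 ratios of CPM in G2/M-positive (left) and S-positive (right) over noncycling microglia-like cells for the 23 enzymes measured in fl/fl, with blue points for the fl/fl and orange for the cKO library, bars for exact 95% counting intervals and grey shading under the threshold. Tpi1 and Ldha lie furthest right in G2/M-positive cells, and Ldhb, Pfkfb3 and Pfkfb4 lie left of 0.

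Other measures moved with the cycle groups. The 8 immediate-early genes Fos, Jun, Junb, Atf3, Egr1, Klf2, Klf4 and Ier2, a list made after the clusters had been seen, summed to 6550 and 4754 CPM in noncycling and G2/M-positive fl/fl cells, and to 6367 and 4247 CPM in the cKO library. The 16 microglial markers summed to 33701 and 26449 CPM and to 35458 and 26932 CPM. Their part in the enzyme values was not tested. The cycle groups also sit in different clusters. In the 2 clusters with at least 40 cells of each kind in both libraries, clusters 1 and 10, a choice made after seeing the data, the medians were smaller, at 0.06 and 0.01 in cluster 1 and at 0.14 and 0.19 in cluster 10 (fl/fl and cKO). With these 2 clusters weighted equally, 3 enzymes in cKO passed the threshold upward rather than 11. Ldha was higher in G2/M-positive cells in all 4 of these comparisons, at 0.30 (0.20 to 0.40) and 0.26 (0.14 to 0.38) in cluster 1 and 0.35 (0.09 to 0.60) and 0.50 (0.30 to 0.70) in cluster 10. Ldhb stood there at -0.12 and -0.07 and at -0.30 and -0.02.

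Of the 68 other pathway genes 29 and 27 were measured in G2/M-positive cells, with medians of 0.02 and 0.09. Past the threshold were 8 and 7 upward, beside 22.5% and 24.3% of all measured genes, and 6 and 5 downward, beside 17.0% and 26.6%. Prps1, which makes phosphoribosyl pyrophosphate from ribose 5-phosphate, had the highest ratio, at 9.15 against 25.02 CPM in fl/fl (1.45, 1.15 to 1.76) and 10.4 against 25.5 CPM in cKO (1.29, 0.99 to 1.59). Lower were the glycogen-targeting phosphatase subunits Ppp1r3b (-0.79 and -1.05) and Ppp1r3d (-0.79 and -0.61) and the lysosomal glucosidase Gaa (-0.61 and -0.86). Hk2 was lower in G2/M-positive cells of both libraries, at 181 against 143 CPM (-0.35, -0.43 to -0.26) and 47.4 against 35.2 CPM (-0.43, -0.63 to -0.24).

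Across the 10 microglia-like clusters the abundant glycolytic enzymes varied together. Of the 14 enzymes with a mean of at least 100 CPM, 10 ranged at least 2-fold from the lowest to the highest cluster in both libraries, beside 49.2% of 1542 genes of that level. The median range was 2.83-fold in fl/fl and 2.79-fold in cKO, beside 2.05-fold and 2.16-fold over those genes. Gapdh stood lowest in cluster 3, at 1470 and 1443 CPM, and highest in cluster 0, at 4494 and 4336 CPM. Cluster 3 is led by Rrad, Klf2 and Jun and cluster 0 by the mitotic genes Pbk, Cdc20 and Cdk1. Tpi1 and Ldha ranged most, Tpi1 from 97.1 to 513 CPM (fl/fl) and from 94.8 to 421 CPM (cKO). Ldha went from 176 to 760.0 CPM and from 161 to 733 CPM. Aldoa, Tpi1, Pgk1, Pgam1, Eno1, Pkm, Ldha and Tkt followed Gapdh, with Pearson's r from 0.97 to 0.99 over the 10 clusters in each library. For Gpi1, Pgls, Pgd and Taldo1 r was lower, from 0.77 to 0.94. These values are given as a description, since the clusters share a library, depth and scaling.

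Ldhb and Pfkfb3 had other orders. Ldhb was highest in cluster 5, led by Rcan1, Gadd45b and Nr4a3, at 663 and 751 CPM, where Tpi1 was lowest, and its r with Gapdh was -0.68 and -0.56. It was lowest in the mitotic clusters 9 (347.5 CPM, fl/fl) and 6 (389 CPM, cKO). Pfkfb3 was lowest in clusters 10 and 0, at 19.2 and 21.6 CPM (fl/fl) and 21.1 and 11.3 CPM (cKO), the 2 clusters where Gapdh was highest, and reached 75.5 CPM in the interferon-gene cluster 11 (fl/fl) and 82.9 CPM in cluster 3 (cKO). The order of Gapdh was not that of the share of cycling cells. Cluster 10, led by Gm28438, Apoe and Mif, held 48.5% and 54.5% noncycling cells and had the second-highest Gapdh level, at 3647 and 3589 CPM, above clusters 6 and 9, in which at least 93.8% of the called cells were G2/M-positive. Clusters 3, 5 and 11, with 73.6% to 92.6% noncycling cells, were the lowest in Gapdh in both libraries.

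**Figure D4:**
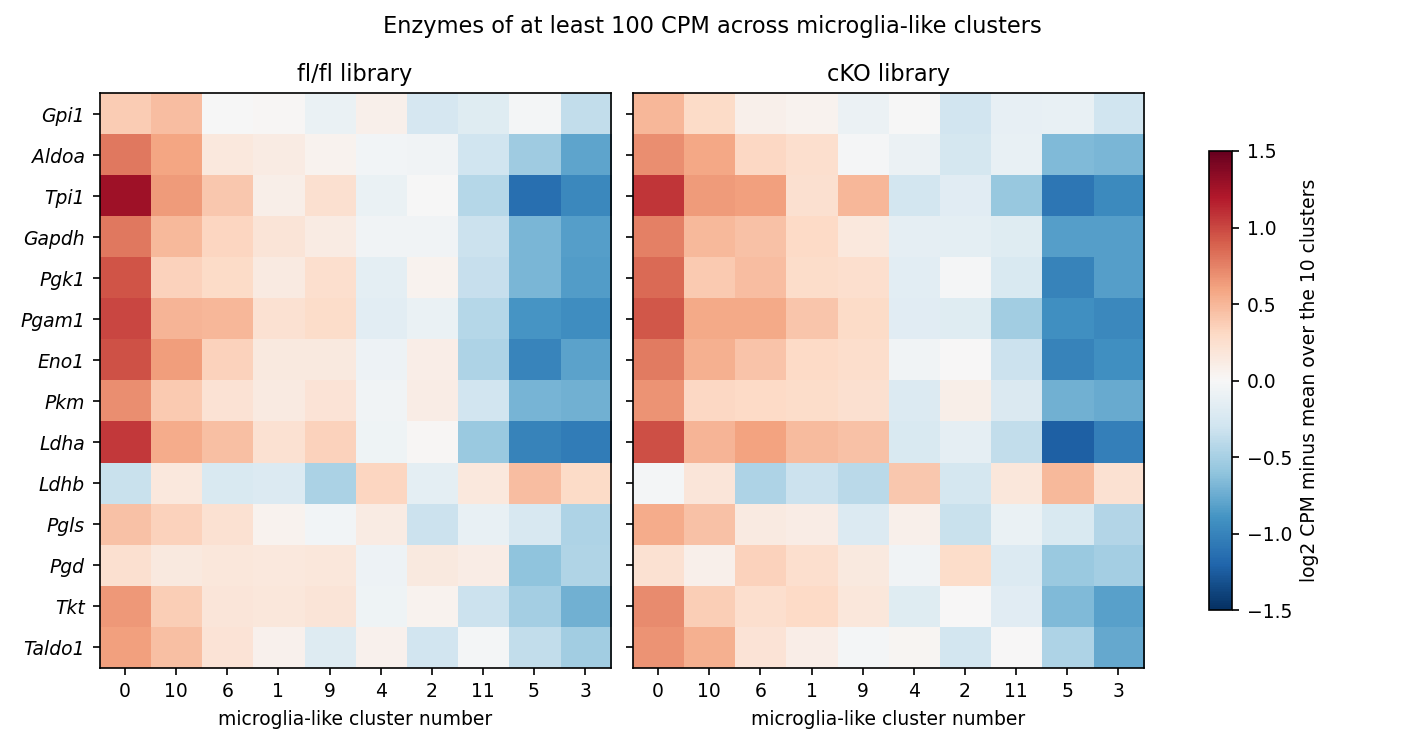
Log2 CPM of the 14 enzymes of at least 100 CPM in each microglia-like cluster, minus the enzyme's mean over the 10 clusters, in the fl/fl (left) and cKO (right) library, with red for above and blue for below that mean and clusters ordered by their summed enzyme level in fl/fl. Most rows run from red in cluster 0 to blue in cluster 3, and the Ldhb row is highest in clusters 4 and 5.

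Other measures followed the same cluster order. The summed level of the 32 enzymes, 4815 to 12122 CPM over the fl/fl and 4866 to 12092 CPM over the cKO clusters, went against the 8 immediate-early genes, with r of -0.86 and -0.80 over the 10 clusters on log scales. Those genes summed to 10161 and 10075 CPM in cluster 3, and to 468 and 473 CPM in cluster 0. The r with the share of ribosomal protein UMIs was 0.65 and 0.71, with the mitochondrial share 0.62 and 0.44, and with median depth 0.02 and -0.15. Whether any of these bears on the enzyme levels was not tested. With ribosomal protein and mitochondrial genes left out of the totals, 10 of the enzymes again ranged at least 2-fold in both libraries, and at a clustering resolution of 0.4 only 3 did.

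The other sorted cell classes differed in which isozyme or branch they held most of. Neutrophil-like cells (97 fl/fl and 102 cKO cells) held more than microglia-like cells of Pygl, Gbe1, G6pdx, Pgd, Tkt and Taldo1. Of 26 measured enzymes, 11 passed the threshold upward and 6 downward against microglia-like cells in fl/fl, where 13.9% and 56.8% of 7766 genes did, and 10 and 10 in cKO, where 13.7% and 65.7% of 7520 genes did. A gene at under 10 CPM in one group enters such a count through the group where it is high, as Gys1, Pygl and Gbe1 did in fl/fl and Pfkp, Pygl, Gbe1 and H6pd in cKO. Of the 23 and 22 enzymes with at least 10 CPM in both groups, a choice made after the values were seen, 8 and 7 passed the threshold upward and 6 and 9 downward, beside 10.6% and 10.8% of genes upward and 56.7% and 65.3% downward. Their median was -0.06 and -0.19, beside -0.40 and -0.56 over those genes. TMM scaling, which centres these libraries differently, adds 0.29 and 0.47 to every log2 ratio here and leaves 2 and 3 of the 26 enzymes past the threshold downward, and ratios below are as CPM give them. These cells also hold microglial RNA. P2ry12, Tmem119, Siglech and Fcrls, 4 of the microglial markers, together reached 1297 and 1153 CPM in them, against 2698 and 2751 CPM in microglia-like cells, and 43 and 69 of the cells had no UMI of any.

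Pygl (ENSMUSG00000021069, chromosome 12, 70190811 to 70231488, minus strand, GRCm38), which releases glucose 1-phosphate from glycogen, differed most. It measured 203 CPM (223 UMIs) in fl/fl and 222 CPM (289 UMIs) in cKO neutrophil-like cells, against 6.55 and 6.65 CPM in microglia-like cells, log2 ratios of 4.95 (4.68 to 5.23) and 5.06 (4.79 to 5.33). In neutrophil-like cells without microglial marker UMIs it stood at 390.3 and 325 CPM. A Pygl UMI was found in 76.3% and 77.5% of neutrophil-like cells (median 8123 and 8811.5 UMIs) and in 7.77% and 8.21% of microglia-like cells, and after thinning to 2000 UMIs in 37.1% and 37.9% against 1.15% and 1.37%. In endothelial-like cells, which are not known for this gene, the share was 7.55% and 5.43% (median 6889 and 6129 UMIs), and after thinning 0 of 49 and 0 of 90 cells. These cells also hold microglial markers, so their share is no independent background. Monocyte-like cells had a Pygl UMI in 63.5% and 47.6% of cells, and after thinning in 23.3% and 9.52%. In neutrophil-like cells Gbe1 was at 17.3 and 24.5 CPM and Gys1 at 21.8 and 13.8 CPM, above their levels in microglia-like cells.

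The NADPH-forming dehydrogenases G6pdx and Pgd were higher in neutrophil-like cells, at 83.7 and 92.0 CPM (1.53 and 1.76) and at 232 and 202.5 CPM (0.65 and 0.53). H6pd, the dehydrogenase of the endoplasmic reticulum, was lower in cKO, at under 10 CPM against 12.7 CPM in microglia-like cells. Tkt measured 688 and 703 CPM (0.94 and 0.95) and Taldo1 592 and 663 CPM (0.75 and 0.90). In glycolysis proper the ratios differed by step. Gpi1 was higher, at 497 and 462 CPM (0.93 and 0.80), and Pfkfb4 at 38.2 and 36.8 CPM (1.09 and 1.16). Gapdh (1807 and 1683 CPM, -0.56 and -0.64), Tpi1 (-0.60 and -0.83) and Eno1 (-0.40 and -0.71) were lower per UMI. The median over all genes with at least 10 CPM in both groups was also low, at -0.40 and -0.56. The 11 neutrophil markers took 213434 and 269499 CPM in these cells, and their part in the ratios was not tested. Ldhb was at 238 and 196 CPM, and in the cells without microglial marker UMIs 2 and 12 UMIs of it remained, 8.97 and 22.4 CPM, with Ldha there at 632.5 and 525 CPM. Among the other pathway genes, Adpgk, an ADP-dependent glucokinase, stood at 276 and 354 CPM in neutrophil-like cells against 16.2 and 15.97 CPM in microglia-like cells, and Hk3 at 105 and 113 CPM against 46.4 and 53.6 CPM.

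Monocyte-like cells (63 and 21 cells) held more Pfkp and Taldo1 than microglia-like cells. Pfkp was also high in dendritic-cell-like cells, and Taldo1 in neutrophil-like cells. Of 24 measured enzymes, 9 passed the threshold upward and 7 downward in each library, where 23.0% and 37.7% of genes did in fl/fl and 30.4% and 44.7% in cKO. Pfkp and Pygl, and Pgm1 in fl/fl, entered through 1 group alone. Of the 21 and 22 enzymes with at least 10 CPM in both groups, 7 and 7 passed upward and 6 and 7 downward, beside 20.8% and 29.7% of genes upward and 34.9% and 40.3% downward. Their medians were 0.00 and -0.01, beside -0.11 and -0.11 over those genes. Pfkp (ENSMUSG00000021196, chromosome 13, 6579768 to 6648777, minus strand) measured 86.0 CPM (55 UMIs) and 66.6 CPM (12 UMIs), log2 ratios of 4.66 (4.17 to 5.14) and 4.44 (3.44 to 5.32), and held 64.0% (52.9 to 74.0) and 75.0% (47.6 to 92.7) of phosphofructokinase UMIs, against 4.80% and 3.89% in microglia-like cells. Taldo1 stood at 830.0 and 1059 CPM (1.24 and 1.58), Pygl at 108 and 128 CPM (4.04 and 4.26), and G6pdx at 73.5 and 99.8 CPM (1.34 and 1.88). Ldhb was lower, at 167 and 44.4 CPM (-1.50 and -3.59). The 4 microglial markers summed to 950 and 22.2 CPM in the fl/fl and cKO monocyte-like cells, so the 2 libraries' cells differ in microglial RNA. In the 34 and 17 cells without such UMIs, Ldhb gave 7 UMIs in each library, 31.4 and 48.7 CPM, and Pfkp stood at 139 and 62.6 CPM.

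Endothelial-like cells (53 and 92 cells) held 1845 and 1825 CPM of the 4 microglial markers, and 7 and 19 of them had no such UMI. Of 24 and 25 measured enzymes, 3 passed the threshold upward in each library, where 24.7% and 25.4% of genes did, and 7 and 4 downward, where 22.4% and 21.8% did. TMM scaling gave 11 and 8 downward. Of the 23 and 22 enzymes with at least 10 CPM in both groups, 2 and 1 passed upward and 7 and 3 downward, beside 20.0% and 19.8% of genes upward and 21.6% and 21.8% downward. Gbe1, which entered only through the endothelial-like cells, stood at 19.4 CPM (13 UMIs, 1.11, 0.18 to 1.90) and 29.8 CPM (35 UMIs, 1.83, 1.28 to 2.35). Pfkfb3 was at 35.8 CPM (-0.56, -1.21 to 0.01) and 25.6 CPM (-1.12, -1.69 to -0.60), and Ldhb at 368 and 419 CPM (-0.36 and -0.35).

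**Figure D5:**
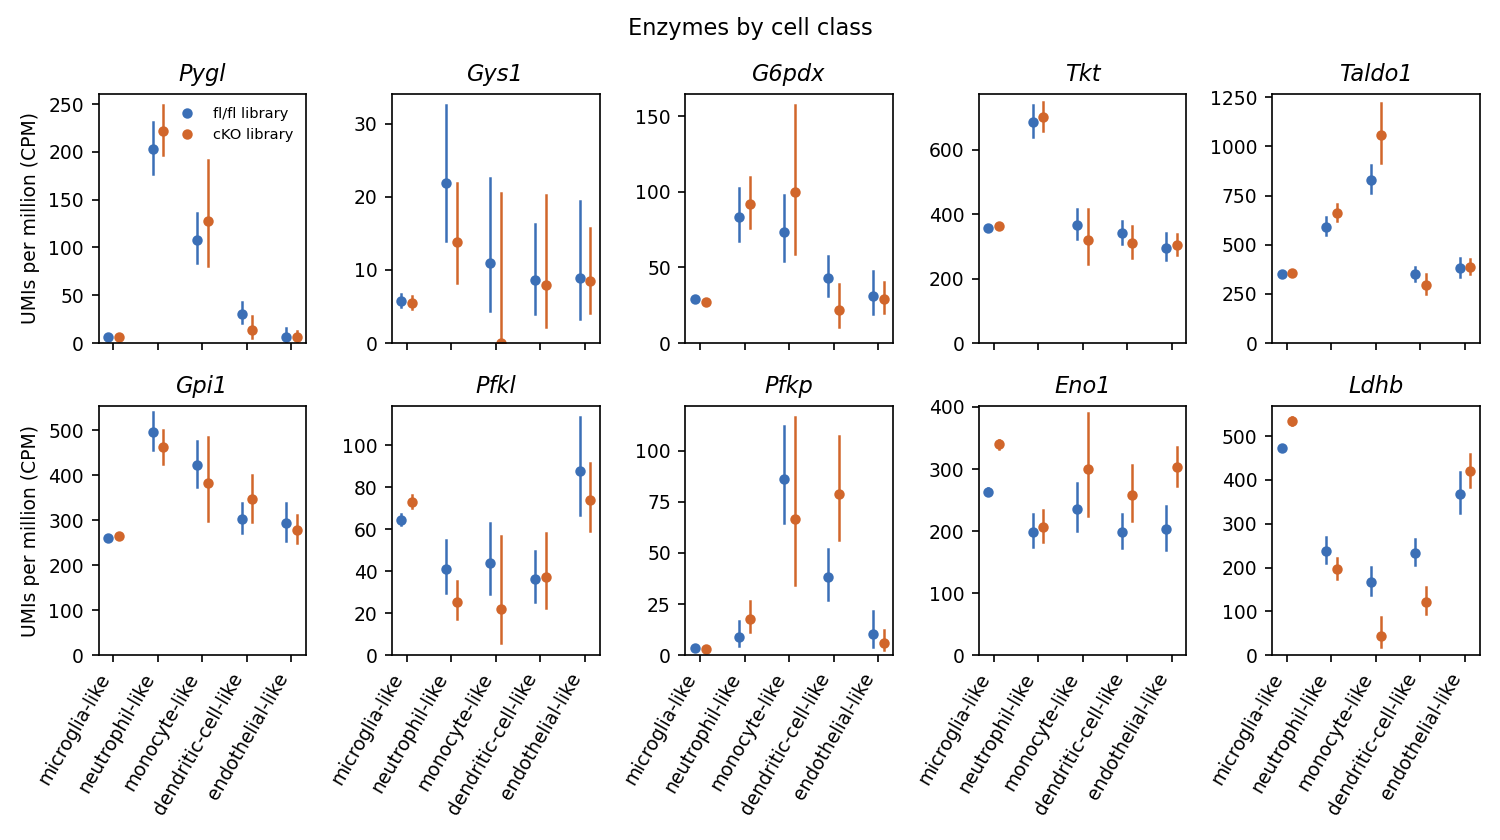
Levels of 10 enzymes in CPM in 5 cell classes, with blue points for the fl/fl and orange for the cKO library and bars for exact 95% counting intervals; each panel has its own axis from 0. Pygl is high in neutrophil-like and monocyte-like cells and near 6.55 CPM in microglia-like cells, Pfkp is highest in monocyte-like and dendritic-cell-like cells, and Ldhb is highest in microglia-like cells.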

How the data were processed

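Gene-by-cell UMI counts were deposited by the authors as 1 filtered 10x matrix per library, made with bcl2fastq and Cell Ranger 3.1.0 on GRCm38 per the submitters' processing notes. All 55450 gene IDs match GENCODE M21, although no source used here names the annotation. A filter of 500 detected genes or more and 10% mitochondrial UMIs or less left 2826 of 3089 fl/fl and 2301 of 2607 cKO barcodes. Doublet calling with Scrublet found only 2 and 1, too few for a working call, so doublets stay in the data, and 2824 and 2300 cells were used. Libraries hold 37476201 and 32896996 UMIs and share 2 barcodes. Cells were clustered with scanpy 1.11.5 (2000 variable genes, 30 components, resolution 0.8) without the pathway genes, and classes were named from marker lists. Raw counts were summed per library and class, and ratios of CPM got exact conditional 95% intervals. The procedure was tested on simulated data. All 32 enzymes were described. Other genes were named where past the threshold in both libraries, or as isozymes, and some results are not reported here. The enzymes, lists and thresholds were chosen with earlier results of these data known.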

Additional observations from a re-analysis of the deposited data

How the results depend on the processing

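Over 24 other settings, single enzymes gave 3399 values within the main value's counting interval, 542 outside it and 10 that turned the direction of an enzyme past the threshold. Of the 3399 and 542 values, 162 turned the sign of an enzyme under the threshold. Summaries gave 504 values called the same and 66 called moved, with counts of enzymes judged by how far the count moved and not by an interval. Of these values, 27 turned the sign of a summary under the threshold. The neutrophil-like cKO median turned from -0.09 to 0.37 with TMM scaling and to 0.46 with cells thinned to 5000 UMIs. The genotype ratio of Eno1 ran from 0.15 to 0.46. No paired analysis was possible because each genotype has 1 library, and this also leaves no library to leave out. Depth limits the small classes, where many enzymes rest on under 40 UMIs. The cause of each shift below was not tested. Medians are log2 and counts are of enzymes past the threshold.
TMM scaling gave medians of 0.34 (S-positive, fl/fl) and 0.37 (neutrophil-like, cKO), 2 and 3 downward calls in neutrophil-like and 11 and 8 in endothelial-like cells, and turned Pfkfb3 (0.041) and Rpia (0.086) in cKO neutrophil-like cells. Leaving out mitochondrial and ribosomal protein genes gave 0.39 for S-positive fl/fl cells, and adding 5 CPM 0.35. Means of per-cell CPM gave 0.41 (G2/M-positive, cKO) and 0.52 (S-positive, fl/fl), 7 upward (fl/fl) and 9 downward (cKO) calls in endothelial-like cells, and Ldhb shares of 58.9% and 60.8%.
Cells thinned to 5000 UMIs gave 0.44 (G2/M-positive, cKO), 0.54 with 1 downward call (S-positive, fl/fl), 0.46 (neutrophil-like, cKO), 6 upward and 8 downward calls (endothelial-like, cKO) and Ldhb shares of 58.9% and 60.8%. They turned Pgm1 in S-positive cKO cells (-0.16) and H6pd (1.18) and Pgm1 (0.057) in endothelial-like fl/fl cells.
With genes from 1 CPM, the medians were 0.24 (G2/M-positive, cKO) and 0.26 (S-positive, fl/fl). Downward calls were 4 (other pathway genes, genotype), 4 (G2/M-positive, fl/fl), 4 (S-positive, cKO) and 12 (monocyte-like, cKO), and upward calls 8 and 7 in endothelial-like cells. With genes from 50 CPM, the median was 0.45 (G2/M-positive, cKO) and downward calls were 1 (other pathway genes), 1 (G2/M-positive, fl/fl), 5 (neutrophil-like, cKO), 4 and 1 (endothelial-like). Upward calls were 6 and 6 in neutrophil-like, 5 and 5 in monocyte-like, and 1 and 0 in endothelial-like cells.
A stricter cell filter gave 3 and 1 downward calls in endothelial-like cells and turned Pgm1 there in cKO (0.60). Removing high doublet scores turned Rpia in cKO neutrophil-like cells (0.060). Clustering at 0.4 left 3 enzymes with a 2-fold range and gave no monocyte-like class, so no value for it, and clustering at 1.5, or with the pathway genes, gave 5 upward calls in cKO endothelial-like cells.
Cycle calls from 2 genes gave 0.35 with 1 downward call (S-positive, fl/fl) and 1 (cKO). Calls from 5 genes gave 1 downward call (G2/M-positive, cKO) and 0.38 (S-positive, fl/fl), noncycling cells without any cycle gene 0.38, and thinning to 2500 UMIs 0.21 (G2/M-positive, cKO) and 0.31 (S-positive, fl/fl). Equal weight for clusters 1 and 10, added after seeing the data, gave 0.079 with 3 upward calls (G2/M-positive, cKO) and turned Pkm (-0.032) and Pfkfb3 (0.36) in fl/fl.
For genotype, G2/M-positive cells alone gave 0.081, with 1 other pathway gene downward. Cells with Gm28438 alone in both libraries gave -0.10, 1 enzyme and 6 other pathway genes downward. In cells without microglial marker UMIs, Rpia turned in cKO neutrophil-like cells (0.13), and endothelial-like fl/fl cells gave -0.54 with 13 downward calls and a turned Pfkl (-0.54), against 5 upward and 8 downward in cKO.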

Other observations

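Dendritic-cell-like cells (56 fl/fl and 36 cKO cells), taken up after values had been seen, resembled monocyte-like cells in Pfkp, the platelet-type phosphofructokinase, at 38.1 and 78.8 CPM, log2 ratios to microglia-like cells of 3.49 and 4.69. Aldoa there measured 371 and 291 CPM, and Ldhb 234 and 122 CPM (-1.01 and -2.13). In osteoclast-type-like cells (16 and 23 cells), Aldoa stood at 884 and 1041 CPM (0.60 and 0.68) and Pgls, the lactonase of the oxidative pentose phosphate branch, at 359 and 441 CPM (0.68 and 1.01), while Ldhb was lower by the same log2 ratio in both libraries (-1.15). With these few cells, the intervals of counting error say nothing of the spread between animals.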
